A study of Mus musculus with 2 samples.

Results

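The interferon regulatory factors and STAT2 were followed as 9 genes, Irf1, Irf2, Irf3, Irf4, Irf5, Irf7, Irf8, Irf9 and Stat2, chosen by symbol from the 12584 genes of the count matrix. All 9 were present. The cells were live CD45+ leukocytes sorted from tumours that YUMM3.3, a mouse melanoma line with Braf V600E and without Cdkn2a, formed in C57BL/6 mice and collected on day 12 per the labels, a day on which the methods of the study differ. NTT stands for tumours of the line never exposed to targeted therapy, and RTT for tumours of a derivative that resists BRAF inhibition and was kept in dabrafenib in culture. Neither group received T cell transfer or another treatment that the labels name, and the labels give neither the age of the mice nor the number of tumours behind a library. With 1 library per group, effects of the line cannot be told apart from those of the animal, the sort or the library, and no test between groups is possible.

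Interferon regulatory factors are DNA-binding proteins that control interferon genes and the genes that interferons induce. Type I interferon acts through its receptor and the kinases JAK1 and TYK2 to assemble a complex that contains STAT2 and IRF9 and binds interferon-stimulated response elements (ISREs), whereas interferon-gamma acts mainly on gamma-activated sites (GAS). IRF3 and IRF7 are activated downstream of nucleic acid sensors and drive interferon transcription, IRF1 and IRF2 bind similar elements as activator and, often, as antagonist, and IRF4, IRF5 and IRF8 shape the identity and inflammatory output of myeloid and lymphoid cells. IRF8 is needed for type 1 conventional dendritic cells and IRF4 for plasma cells and many type 2 dendritic and activated T cells.

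The promoters of the members are shown where they hold a short form of either element, because the members are both effectors and targets of interferon. RefSeq windows (GRCm38.p6) matched all 9 members, and the 250 bases before the annotated start were searched for GAAANNGAAA on both strands, an ISRE-like motif found in 2.98% of 32851 windows, and for TTCNNNGAA, a GAS-like motif that reads the same on both strands, found in 7.02%. In the sequences below, capitals mark the matches, which are descriptions of the letters and not evidence of binding. All 4 genes lie on the plus strand.
Irf1, chr11:53769764-53770013: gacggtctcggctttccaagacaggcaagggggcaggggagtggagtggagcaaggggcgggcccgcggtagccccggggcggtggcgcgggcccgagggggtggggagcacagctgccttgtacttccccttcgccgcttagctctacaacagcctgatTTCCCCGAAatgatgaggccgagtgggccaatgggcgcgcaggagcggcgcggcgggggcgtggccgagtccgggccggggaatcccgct
Irf2, chr8:46739495-46739744: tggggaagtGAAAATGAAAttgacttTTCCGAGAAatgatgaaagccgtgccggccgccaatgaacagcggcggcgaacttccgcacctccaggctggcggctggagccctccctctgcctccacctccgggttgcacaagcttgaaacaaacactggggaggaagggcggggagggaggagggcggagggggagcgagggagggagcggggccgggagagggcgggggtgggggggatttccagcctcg
Irf8, chr8:120736108-120736357: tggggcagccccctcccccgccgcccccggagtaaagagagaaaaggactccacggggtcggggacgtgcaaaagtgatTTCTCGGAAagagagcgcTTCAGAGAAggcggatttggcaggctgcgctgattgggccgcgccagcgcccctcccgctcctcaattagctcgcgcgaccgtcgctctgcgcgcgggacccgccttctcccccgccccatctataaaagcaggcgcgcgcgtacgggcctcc
Stat2, chr10:128270248-128270497: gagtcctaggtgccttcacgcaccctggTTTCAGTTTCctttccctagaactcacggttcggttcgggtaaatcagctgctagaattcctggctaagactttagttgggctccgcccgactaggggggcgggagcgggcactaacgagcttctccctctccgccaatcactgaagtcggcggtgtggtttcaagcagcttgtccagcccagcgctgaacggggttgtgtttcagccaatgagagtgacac
The ISRE-like letters began 241 bases before the start of Irf2 and, on the opposite strand, 222 bases before that of Stat2. The GAS-like letters began 90 bases before the start of Irf1, 224 before that of Irf2, and 171 and 153 before that of Irf8. The windows of Irf3, Irf4, Irf5, Irf7 and Irf9 held neither set of letters.

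The NTT library held 2975 cells and 19634099 UMIs (median 5398 UMIs per cell), and the RTT library 4840 cells and 44712071 UMIs (median 8335.5). The members held 41358 UMIs in NTT and 31946 in RTT, or 2106 and 714 CPM, where CPM is the UMIs of a gene over all UMIs of the same cells, scaled in the usual way. The authors' 16 population names were used as deposited, and 8 populations had at least 50 cells in each library. These names came from clusters of expression, so levels by population are given as descriptions. Defining markers were present where the names ask for them: Xcr1 in cDC1 (161 CPM in NTT, 416 in RTT) and Ccr7 in DC3 (2730 and 2462 CPM). A Cd3 UMI was found in 86.0% of NTT and 90.2% of RTT cells named NK_cells, so this population is called by its deposited name only. Ptprc, the gene of CD45, was lower in RTT in 8 of 8 populations, with log2 ratios of RTT over NTT from -1.16 to -0.37, and whether this bears on the values below was not tested. All intervals are 95% and cover counting error only, UMIs of 1 cell are not independent, and fewer cells expressing a gene and less RNA per cell are not separated by a summed level. Overlap of gene models limits the counts of Irf9 (chr14:55603571-55610030), which overlaps Rnf31 on the same strand, and of Irf8 (chr8:120736358-120756694), which overlaps Gm20388.

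Over all cells, 6 of 9 members were at least 2-fold lower in RTT and 0 were at least 2-fold higher. Among all 10258 genes with at least 100 UMIs, 11.6% were at least 2-fold lower and 9.09% at least 2-fold higher. The median log2 ratio was -1.23 over the members and 0.08 over all genes. Irf7, Stat2 and Irf1 had the lowest ratios, Irf3 was the one member above 0, and the ratios of Irf4 and Irf8 were close to the 2-fold line: in cells thinned to equal depth and as a mean over cells they were between -0.99 and -0.43, which left 4 of 9 members past 2-fold. In cells thinned to 2000 UMIs, a mean of 2.52 of the 9 members was detected per NTT cell and 1.21 per RTT cell.

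The same count was made inside classes of cells, since macrophages made up most of the RTT library and monocytes most of the NTT library. In monocytes (1615 NTT and 199 RTT cells), 3 of the 8 members with at least 100 UMIs were at least 2-fold lower, against 7.28% of all genes, and 0 were higher, against 3.89%. In macrophages (582 and 4009 cells), 4 of 9 were lower, against 6.96%, and 0 higher, against 5.28%. In dendritic cells (492 and 526 cells), 3 of 9 were lower, against 7.8%, and 0 higher, against 6.14%. Irf1, Irf7 and Stat2 were the members past 2-fold in each of the 3 classes. In monocytes they lay close to the 2-fold line, with intervals that crossed it: Irf1 -1.04 (-1.31 to -0.78), Irf7 -1.02 (-1.14 to -0.90) and Stat2 -1.03 (-1.29 to -0.79). Irf4 made the fourth in macrophages only through 1 NTT cell, without which 3 of 9 were lower there. The macrophages of the libraries lay in different populations, since TAM_C1q was 0.571% of NTT and 41.3% of RTT cells, while TAM_H2Ab1 had 169 cells in NTT and 36 in RTT.

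**Figure D1:**
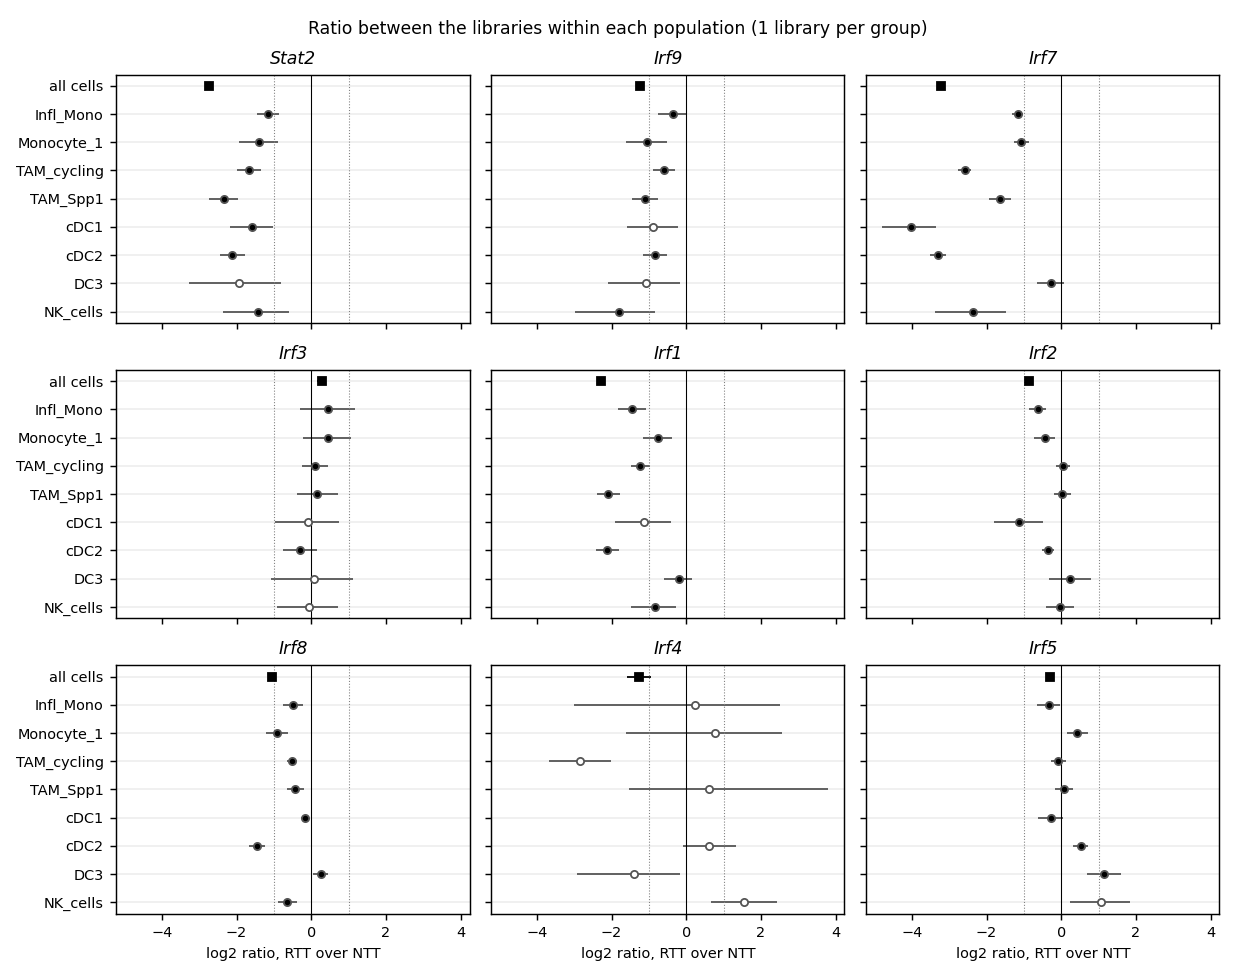
Log2 ratio of RTT over NTT for each member over all cells (squares) and in the 8 populations with at least 50 cells per library (circles), with exact 95% counting intervals; open circles have under 100 UMIs, dotted lines mark 2-fold, and Irf4 in cDC1 is left out because RTT held 0 UMIs. Stat2 lies left of the lower 2-fold line in 8 of 8 populations, while the intervals of Irf3 include 0 in 8 of 8.

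Within single populations the share of genes at least 2-fold lower was 9.64% in Infl_Mono, 11.6% in Monocyte_1, 13.3% in TAM_Spp1, 4.7% in TAM_cycling, 5.97% in cDC1, 7.05% in cDC2, 6.48% in DC3 and 7.62% in NK_cells. Against these, 3 of 8 members with at least 100 UMIs were lower in Infl_Mono, 3 of 8 in Monocyte_1, 4 of 8 in TAM_Spp1, 3 of 8 in TAM_cycling, 3 of 5 in cDC1, 4 of 8 in cDC2, 0 of 5 in DC3 and 3 of 6 in NK_cells. A member that passed the minimum of UMIs through the NTT library alone had to differ, so these counts describe the members that passed and not all 9.

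Stat2 and Irf9 are the DNA-binding parts of the type I interferon complex. Stat2 (chr10:128270559-128292849) stood at 180.9 CPM in NTT and 27.2 CPM in RTT over all cells, from 3552 and 1216 UMIs. NTT was 6.65-fold higher, a log2 ratio of -2.73 (interval -2.83 to -2.64). In NTT its level was highest in Infl_Mono, at 416 CPM, and lowest in TAM_cycling, at 63.2 CPM, and in RTT it ran from 187 CPM in Infl_Mono to 11.1 CPM in Ctsk_Macro, a population with at least 50 cells in RTT alone. Among populations with at least 50 cells Infl_Mono stood above the next in both libraries by more than the counting intervals (the 26 RTT cells of Macro held 147 CPM), whereas cDC1, cDC2, Monocyte_1 and Neutro overlapped in turn in NTT. The ratio of Stat2 was below -1 in 8 of 8 populations, from -1.16 in Infl_Mono (interval -1.45 to -0.87) to -2.35 in TAM_Spp1 (-2.75 to -1.95), although DC3, with 74 and 7 UMIs, was under the minimum of 100. It was the one member with this pattern. In populations with fewer than 50 RTT cells, Stat2 was at -2.11 in Neutro and -1.01 in TAM_H2Ab1. In Macro it stood at 117 CPM in NTT and 147 CPM in RTT (0.33, -0.38 to 0.99).

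Irf9 differed less. Its level was 104.7 CPM in NTT and 44.7 CPM in RTT, a log2 ratio of -1.23 (-1.32 to -1.14). The order of populations was flat in NTT, from 139 CPM in Neutro to 63.2 CPM in TAM_cycling with every neighbour overlapping although the ends of the order did not. Irf9 was lower in RTT in 7 of 8 populations by its interval and below -1 in 4, of which DC3 (70 and 12 UMIs) was under the minimum of 100, with the lowest ratio, -1.82, in NK_cells (114 and 9 UMIs). In Infl_Mono, where interferon targets were highest, Irf9 stood at 137 CPM in NTT and 107 CPM in RTT, and the interval of its ratio (-0.76 to 0.03) included 0, while without the top cell of each library it was just below (-0.84 to -0.01).

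Irf7, the factor that amplifies type I interferon production and is itself induced by interferon, differed most. Irf7 (chr7:141262706-141266481, minus strand) stood at 731.5 CPM in NTT and 78.1 CPM in RTT, from 14363 and 3494 UMIs. NTT was 9.36-fold higher, a log2 ratio of -3.23 (-3.28 to -3.17), and 1.70% of all genes had a lower ratio. In cells thinned to 2000 UMIs, an Irf7 UMI was present in 55.9% of the NTT library (54.1 to 57.8%) and in 9.92% of the RTT library (9.09 to 10.8%). Without thinning the shares were 76.0% and 20.7%.

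The order of Irf7 across NTT populations was steep. Infl_Mono held 1565 CPM, Monocyte_1 897 CPM, cDC2 801 CPM, cDC1 708 CPM and TAM_H2Ab1 551 CPM, and the lowest levels were in TAM_Spp1 (154 CPM) and NK_cells (152 CPM). Infl_Mono and Monocyte_1 were each set apart from the population below them, whereas cDC2 overlapped cDC1. In RTT, Infl_Mono held 696 CPM and Monocyte_1 428 CPM, while cDC2 held 80.9 CPM, TAM_C1q 74.8 CPM and Ctsk_Macro 19.4 CPM. Among populations with at least 50 cells Infl_Mono and Monocyte_1 were highest in both libraries, and every other one of RTT apart from DC3 was below every NTT population.

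Dendritic cells showed the widest Irf7 ratios. In cDC1, which cross-present antigen, Irf7 stood at 708 CPM in NTT and 43.6 CPM in RTT, a log2 ratio of -4.02 (-4.79 to -3.35) from 463 and 18 UMIs. In cDC2 it stood at 801 and 80.9 CPM (-3.31, -3.53 to -3.10). The 2 monocyte populations had ratios of -1.17 (-1.32 to -1.02) in Infl_Mono and -1.07 (-1.27 to -0.87) in Monocyte_1, and no interval of theirs reached those of cDC1, cDC2, TAM_cycling (-2.59) or NK_cells (-2.35). In DC3, the Ccr7+ dendritic cells, the ratio was -0.28 (-0.66 to 0.08). There 1 RTT cell held 58 of the 80 RTT UMIs, and without the top cell of each library the levels were 302 and 79.7 CPM and the ratio was -1.92 (-2.62 to -1.29).

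In 2 populations with fewer than 50 RTT cells Irf7 was higher in RTT. TAM_H2Ab1, a macrophage population named after an MHC class II gene, held 551 CPM in 169 NTT cells and 752 CPM in 36 RTT cells (0.45, 0.25 to 0.64), with 41 of the 271 RTT UMIs in 1 cell. Macro held 215 CPM in 100 NTT cells and 329 CPM in 26 RTT cells (0.61, 0.14 to 1.07). Neutro, with 91 and 29 cells, went the other way, from 428 to 121 CPM (-1.82, -2.47 to -1.22). C1qa, a macrophage gene, stood at 7699 CPM in RTT Neutro and 1258 CPM in NTT Neutro, and its part in this value was not tested.

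**Figure D2:**
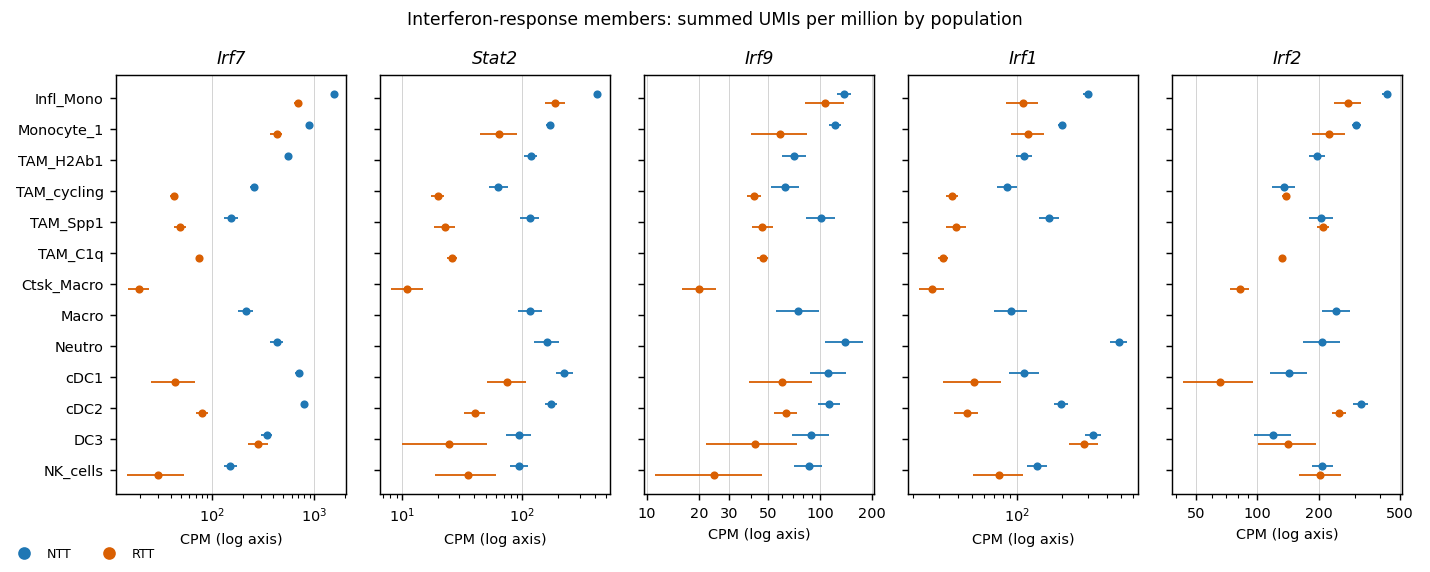
Level of Irf7, Stat2, Irf9, Irf1 and Irf2 in CPM of summed UMIs (log axes) in each population with at least 50 cells in a library, NTT in blue and RTT in orange, with exact Poisson 95% intervals. Irf7 reached 1565 CPM in NTT Infl_Mono and 19.4 CPM in RTT Ctsk_Macro.

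The cells of a population differed in Irf7 as well. After thinning to 2000 UMIs, 28.9% of 598 NTT Infl_Mono cells held 5 or more Irf7 UMIs and 23.9% held 0. Of 92 RTT Infl_Mono cells, 5.43% held 5 or more and 43.5% held 0. In RTT TAM_C1q, the largest RTT population, 91.3% of 1995 cells held 0 and 2.86% held at least 2, and in the 54 RTT cDC1 cells 92.6% held 0 against 57.7% of 78 in NTT.

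Cells with more Irf7 held more of 17 summed interferon targets (the list includes Isg15, Ifit1, Rsad2, Gbp2, Cxcl9 and Cxcl10). In NTT Infl_Mono the targets stood at 4308 CPM in the 143 cells with 0 Irf7 UMIs, 9298 CPM in those with 1 and 23250 CPM in the 346 with at least 2. In RTT Infl_Mono the same classes held 7575, 9667 and 20355 CPM, and the class with at least 2 made up 33.7% of cells in RTT against 57.9% in NTT. In RTT TAM_C1q the targets stood at 472 CPM in cells with 0 Irf7 UMIs and 2316 CPM in the 57 cells with at least 2. Other members differed less between these classes. In NTT Infl_Mono, Stat2 stood at 217 and 483 CPM in cells with 0 and at least 2, Irf9 at 119 and 139 CPM, Irf1 at 290 and 316 CPM and Irf3 at 28.0 and 28.9 CPM. Irf8 stood at 238 and 347 CPM, and Stat2 and Irf8 were the ones of these 5 whose intervals did not overlap.

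**Figure D3:**
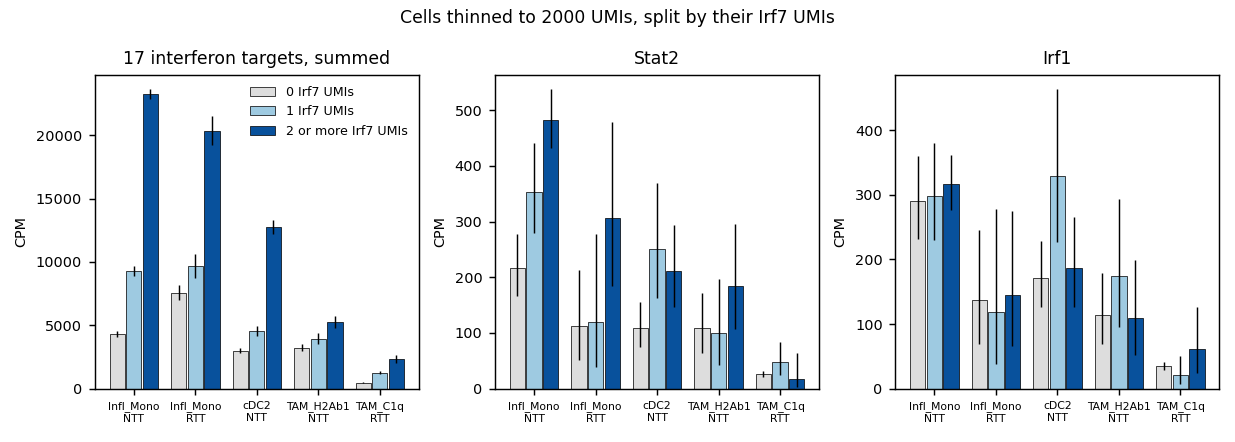
CPM of 17 summed interferon targets, Stat2 and Irf1 in cells thinned to 2000 UMIs and split by their Irf7 UMIs (0, 1, or 2 or more), in 5 populations of 1 library each; bars start at 0 and error bars are exact Poisson 95% intervals. In NTT Infl_Mono the targets climb from 4308 to 23250 CPM while Irf1 stays between 290 and 316 CPM.

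Irf3, the constitutive partner of Irf7 (chr7:44997648-45002848), stood apart from all others. Its level was 36.1 CPM in NTT and 43.7 CPM in RTT, a log2 ratio of 0.28 (0.15 to 0.40). Over populations it ran from 26.1 CPM in Infl_Mono to 52.0 CPM in cDC1 in NTT and from 35.7 to 48.4 CPM in RTT, with every neighbour overlapping. In 8 of 8 populations the interval of the ratio included 0, from -0.30 in cDC2 to 0.45 in Infl_Mono. The widest of these intervals, in DC3, ran from -1.07 to 1.12, so a 2-fold difference there was not detectable at this depth.

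Irf1 and Irf2 bind the same elements. Irf1 (chr11:53770014-53778374) stood at 191.2 CPM in NTT and 38.9 CPM in RTT, a 4.91-fold difference (-2.30, -2.38 to -2.21). Its order differed from that of Irf7: Neutro was highest in NTT, at 483 CPM, followed by DC3 at 326 CPM and Infl_Mono at 297 CPM, and the 29 RTT Neutro cells stood at 42.0 CPM. In RTT, DC3 at 283 CPM was set apart from Monocyte_1 at 118 CPM, and Ctsk_Macro was lowest at 26.5 CPM. The ratio was lowest in cDC2 (-2.11, -2.43 to -1.80) and TAM_Spp1 (-2.08, -2.40 to -1.77) and below -1 in 5 of 8 populations, of which cDC1 (73 and 21 UMIs) was under the minimum of 100. In DC3 the interval of the ratio, -0.59 to 0.16, included 0, from 257 and 80 UMIs.

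Irf2 (chr8:46739732-46847458) stood at 267.0 CPM in NTT and 146.4 CPM in RTT (-0.87, -0.92 to -0.81). It was highest in Infl_Mono in both libraries, at 429 and 277 CPM. In TAM_Spp1 (205 and 210 CPM), TAM_cycling (134 and 138 CPM) and NK_cells (208 and 203 CPM) the ratios were between -0.03 and 0.04, with intervals that all lay within -0.42 and 0.34, so a 2-fold difference in either direction lay outside them. In cDC1 it was 142 CPM in NTT and 65.4 CPM in RTT (-1.12, -1.80 to -0.49), from 93 and 27 UMIs.

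Irf8, Irf5 and Irf4 are the members best known from cell identity. Irf8 stood at 429.7 CPM in NTT and 205.1 CPM in RTT (-1.07, -1.11 to -1.02). It was highest in cDC1 in both libraries, at 2592 and 2307 CPM, followed by DC3 at 846 and 1003 CPM and NK_cells at 613 and 393 CPM, each set apart from the next. An Irf8 UMI was found in 94.9% of thinned NTT cDC1 cells and in 100% of RTT ones. In cDC1 the ratio was -0.17 (-0.28 to -0.05), beside an Irf7 ratio of -4.02 in the same cells. Without further scaling the Irf8 difference of cDC1 was the smallest of the 8 populations. In DC3 the ratio was 0.25 (0.04 to 0.45). It drops to 0.09 when the library totals are scaled by the median of gene ratios, a scaling that moves all DC3 ratios by -0.16. With that scaling cDC1 was at -0.20, so that the difference in DC3 was the smaller one. Ctsk_Macro was lowest, at 26.1 CPM, close to the 28.5 CPM of the 24 RTT Myofibrobl cells, fibroblast-like cells that should lack the gene.

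In cDC2, Irf8 stood at 322 CPM in NTT and 118 CPM in RTT (-1.45, -1.66 to -1.25). The 3 plasmacytoid dendritic cell markers were also lower there: Siglech stood at 233 and 43.8 CPM, Ccr9 at 115 and 31.3 CPM, and the list with Bst2 summed to 1469 and 401 CPM. A UMI of Siglech or Ccr9 was carried by 40 of 279 NTT cells and 15 of 413 RTT cells. In those carrying cells Irf8 stood at 1221 and 1352 CPM, and in the other cDC2 at 197 and 77.9 CPM (-1.33, -1.60 to -1.07). In the same other cDC2, Irf7 stood at 832 and 82.7 CPM (-3.33). A cell without a UMI of Siglech or Ccr9 may still express them, and the part of plasmacytoid cells in these ratios was not tested.

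Irf5 (chr6:29526625-29541871), which acts downstream of Toll-like receptors, went against the other members in part. Its level was 156.9 CPM in NTT and 126.8 CPM in RTT over all cells (-0.31, -0.37 to -0.24). By population it was higher in RTT in 4 of 8 by its interval: DC3 (119 and 265 CPM, 1.15, 0.69 to 1.61), NK_cells (28.6 and 59.7 CPM, 1.06, 0.23 to 1.85), cDC2 (176 and 253 CPM, 0.52, 0.32 to 0.73) and Monocyte_1 (167 and 226 CPM, 0.44, 0.15 to 0.71). Scaling by the median of gene ratios gave 1.00 in DC3, and without the top cell of each library the interval in NK_cells included 0 (0.75, -0.20 to 1.64). In Infl_Mono it was lower (216 and 172 CPM, -0.33, -0.65 to -0.03). Its Infl_Mono cells under 1000 CPM of C1qa, a macrophage gene, held 222 and 231 CPM (0.06), with an interval, -0.42 to 0.50, that also includes -0.33. The Infl_Mono cells with at least 1000 CPM held 199 and 143 CPM (-0.47, -0.94 to -0.03). Macrophage markers were also higher in RTT in 3 of the 4 populations with higher Irf5. The 5 genes of that list summed to 634 and 4114 CPM in DC3, 303 and 2701 CPM in NK_cells and 665 and 1336 CPM in cDC2. In Monocyte_1 they summed to 15078 and 14498 CPM, and their part in the Irf5 values was not tested. An Irf5 UMI was found in 9.76% of thinned RTT NK_cells, which as lymphoid cells should hold little, against 38.9% of RTT cDC1, at median depths of 3967 and 6738 UMIs.

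Irf4 (chr13:30749226-30766976) was scarce, with 164 UMIs in NTT and 155 in RTT, or 8.35 and 3.47 CPM. It was found in DC3 (55.8 CPM in NTT, 21.2 CPM in RTT), cDC2 (15.2 and 23.1 CPM) and NK_cells (20.3 and 59.7 CPM), while Myofibrobl held 0 UMIs in both libraries, which allows up to 24.0 CPM in NTT and 8.55 CPM in RTT. In NK_cells all 27 NTT and 22 RTT UMIs were in cells with a Cd3 UMI, and the ratio was 1.55 (0.67 to 2.42), with 9 of the RTT UMIs in 1 cell. In TAM_cycling the ratio of -2.85 rested on 1 NTT cell with 21 of 28 UMIs, which also held 195 Jchain, 222 Mzb1 and 3862 Igkc UMIs, genes of plasma cells. Without the top cell of each library it was -0.98 (-2.25 to 0.48), and over macrophages it went from -1.96 to -0.80 (-1.61 to 0.10), which leaves 3 of 9 members lower there. Irf4 is therefore not described as lower in macrophages.

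**Figure D4:**
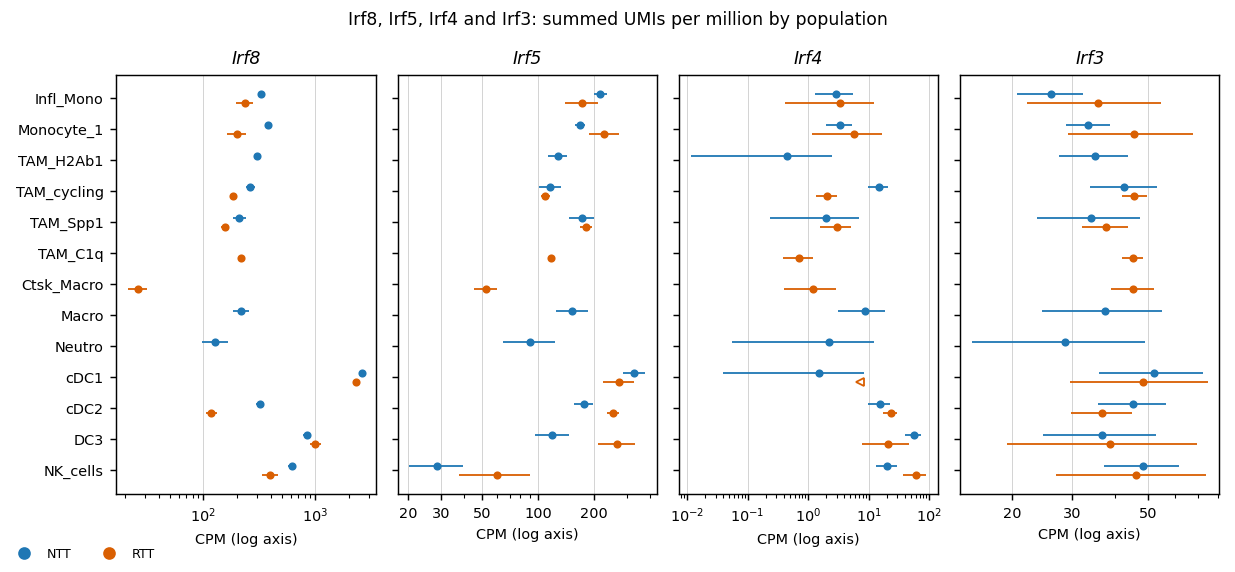
Level of Irf8, Irf5, Irf4 and Irf3 in CPM of summed UMIs (log axes of different range) in each population with at least 50 cells in a library, NTT in blue and RTT in orange, with exact Poisson 95% intervals; an open triangle marks the floor of 3 UMIs where 0 were found. Irf8 sits at 2592 and 2307 CPM in cDC1, and Irf3 lies between 26.1 and 52.0 CPM everywhere.

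Macrophage markers differed between libraries in one of the monocyte populations, and their part in the ratios was not tested. In Infl_Mono the 5 macrophage markers summed to 6662 CPM in NTT and 27886 CPM in RTT, against 22077 and 32608 CPM in the macrophage class. The 3 monocyte markers in the matrix summed to 13643 and 3883 CPM in Infl_Mono. C1qa stood at 1367 CPM in NTT and 6375 CPM in RTT Infl_Mono, and cells with at least 1000 CPM of it were 23.4% and 47.9% of that population. In Monocyte_1 they were 59.5% and 44.4%, with the 5 macrophage markers at a sum of 15078 and 14498 CPM, and over all monocytes 45.3% and 44.7%. In monocytes without such cells (884 NTT and 110 RTT cells), Irf7 stood at 1169 and 454 CPM (-1.36, -1.58 to -1.16), Stat2 at 301 and 93.5 CPM (-1.69, -2.17 to -1.24), Irf8 at 338 and 137 CPM (-1.31, -1.70 to -0.93) and Irf9 at 135 and 61.6 CPM (-1.13, -1.74 to -0.57). Irf1 stood at 268 and 155 CPM (-0.79, -1.16 to -0.43). Without these cells 4 of 8 members were at least 2-fold lower, against 10.5% of all genes in the same cells. Irf8 and Irf9 took the place of Irf1. In the 731 NTT and 89 RTT monocytes with at least 1000 CPM of C1qa, Irf7 was at -0.82 (-0.96 to -0.68) and Stat2 at -0.57 (-0.87 to -0.27). There Irf8 was at -0.52 (-0.75 to -0.30), Irf9 at -0.30 (-0.69 to 0.07) and Irf1 at -1.19 (-1.59 to -0.82).

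The difference over all cells was split into a part from the share of UMIs of each population and a part from the level within populations, with mean weights of both libraries. For Irf7 the difference of -653 CPM came to 59.9% from shares and 40.1% from levels. For Stat2 the parts were 52.4% and 47.6%, for Irf1 52.6% and 47.4%, for Irf8 67.8% and 32.2% and for Irf9 42.7% and 57.3%. The split depends on the weights: with NTT levels as weights 77.0% of the Irf7 difference came from shares, and with RTT levels 42.8%. For Irf5 the shares alone gave -41.3 CPM and the levels 11.3 CPM in the other direction.

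The other genes of the pathway were read from a list ordered by role. Of 51 listed genes 46 were in the matrix and had at least 100 UMIs over all cells. Of these 25 were at least 2-fold lower in RTT, against 11.6% of all genes, and 0 higher, against 9.09%. Among ligands the matrix held Ifng alone, at 39.2 CPM in NTT and 2.93 CPM in RTT (-3.74). The 4 NK and T cell markers, of the cells that make it, summed to 371 and 30.3 CPM (-3.61), and their part was not tested. The 4 receptor genes differed in no case by 2-fold, and Ifngr2 (0.53), Ifnar2 (0.30) and Ifnar1 (0.16) were higher in RTT by their intervals. Of the 3 kinases Jak2 was lower (157 and 39.1 CPM), and Stat3 was lower as well, at 266 and 114 CPM (-1.23). Among 10 activators of IRF3, IRF5 and IRF7 only Ikbke was 2-fold lower (-1.12), and Mavs, an adaptor of RNA sensing, stood at 12.4 and 16.6 CPM (0.42). Batf3, which works with IRF8 in cDC1, was the 1 of 6 partners and repressors past 2-fold over all cells (-1.08). Its ratio was -1.76 in macrophages, -0.32 in dendritic cells and -0.26 in monocytes. Of the 3 feedback inhibitors Usp18 (-2.69) and Socs1 (-2.65) were lower over all cells, and Socs3 was at -0.50. In monocytes Usp18 was higher in RTT, at 175 and 318 CPM (0.86, 0.69 to 1.03), and Socs1 was at -0.14 (-0.45 to 0.16). Usp18 and Socs1 were at -2.37 and -1.96 in macrophages and at -2.48 and -1.11 in dendritic cells.

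All 17 interferon targets in the matrix were at least 2-fold lower in RTT over all cells, in macrophages and in dendritic cells. The shares of all genes were 11.6%, 6.96% and 7.8%, and the median log2 ratios of the targets were -3.03, -2.68 and -2.23. In monocytes 2 of 17 were lower, Gbp2 (-1.12) and Gbp4 (-1.27), against 7.28% of all genes. There 1 target was higher, against 3.89%: Cxcl10, at 971 CPM in NTT and 2633 CPM in RTT (1.44). The median log2 ratio in monocytes was -0.18 over the targets and -0.67 over the 8 members with at least 100 UMIs. Of these members Irf1 (-1.04), Stat2 (-1.03) and Irf7 (-1.02) were lowest. Irf8 (-0.74), Irf9 (-0.60) and Irf2 (-0.48) came next, and Irf5 (0.09) and Irf3 (0.37) were above 0 with intervals that included 0. By their intervals 9 of the 17 targets were lower in RTT monocytes and 4 were higher. Beside Cxcl10 the higher ones were Ifit3 (395 and 750 CPM, 0.93), Ifit1 (472 and 760 CPM, 0.69) and Oasl1 (0.27). Beside Gbp2 and Gbp4 the lower ones were Psmb9 (-0.80), Zbp1 (-0.72), Tap1 (-0.72), Isg15 (-0.66), Ifi44 (-0.53), Oasl2 (-0.45) and Cxcl9 (-0.15). The median ratios of the members and of the targets thus differed in monocytes, and no test of that difference was possible. The make-up of the class differed too: Infl_Mono and Monocyte_1 held 16.0% and 27.6% of NTT UMIs, against 1.32% and 1.18% in RTT. By population the summed targets were lower in RTT, at 16329 and 14276 CPM in Infl_Mono and 5544 and 4464 CPM in Monocyte_1. The part of the make-up in the class values was not tested.

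Across the 21 combinations of population and library with at least 50 cells, the level of a member was set against the summed targets on a log2(CPM + 1) scale. Pearson's r was 0.92 for Irf7, 0.87 for Stat2, 0.84 for Irf1, 0.82 for Irf9, 0.58 for Irf2, 0.32 for Irf8, 0.26 for Irf5, 0.12 for Irf4 and -0.52 for Irf3. The points of 1 library share that library and its depth, so no p is given. Within the 11 NTT combinations r was 0.81 for Irf7 and 0.73 for Stat2, and within the 10 RTT ones 0.92 and 0.86.

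**Figure D5:**
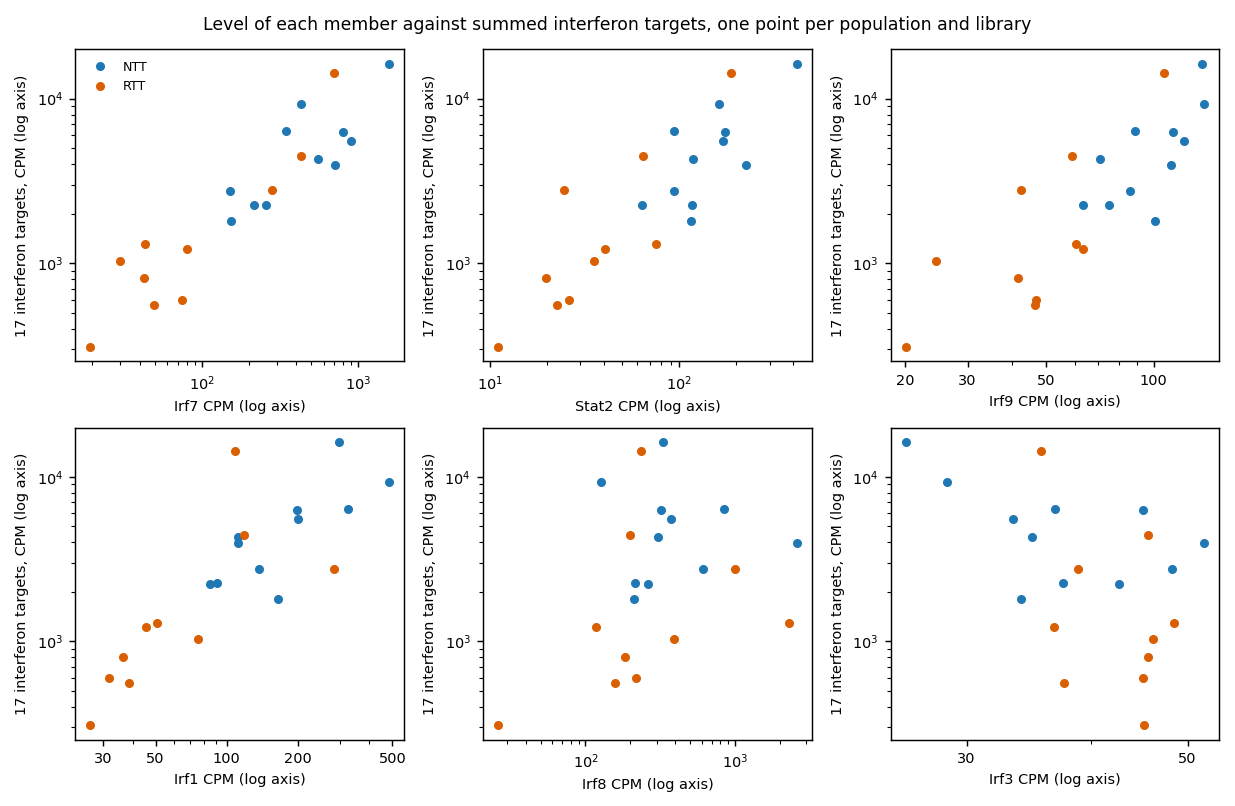
Summed CPM of 17 interferon targets against the CPM of each of 6 members (log axes), 1 point per population with at least 50 cells and library, NTT in blue and RTT in orange. For Irf7 the 21 points lie along a line (r = 0.92), for Irf8 they are scattered (r = 0.32) and for Irf3 they lean the other way (r = -0.52).

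Among members, Irf9 and Stat2 had the most alike patterns over these 21 combinations (r = 0.91), followed by Irf7 with Stat2 (0.85) and Irf7 with Irf9 (0.83). Among all genes with at least 500 UMIs, the pattern of Stat2 was most like those of Trim30a (0.97), Ifi211 (0.97) and Trim30d (0.95), and that of Irf9 like Trim30d (0.96), Trim30a (0.93) and Stat2 (0.91). Irf7 was closest to Trafd1, Isg15 and Dhx58 (0.92 each). Irf1 was closest to Cd274, which encodes the checkpoint ligand PD-L1 (0.93), Helz2 (0.91) and Rnf114 (0.91). Irf8 was closest to Shc1 (0.90), Psme1 (0.87) and Psmb9 (0.85), the last pair parts of the immunoproteasome system. Irf5 was closest to Tspo (0.89) and to Cd74 (0.88) and H2-Aa (0.86), genes of MHC class II presentation, and Irf4 to the interleukin receptor genes Il2ra (0.82) and Il7r (0.79) and to Stat5a (0.75). Irf2 was closest to Tent5a (0.87), Ms4a4c (0.86) and Slfn1 (0.86), and Irf3 to Usp10 (0.88), Uchl3 (0.85) and Alyref (0.84).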

How the data were processed

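Single-cell libraries were made by the authors with 10x Genomics 3′ chemistry and processed with Cell Ranger 6.1.1 on mm10, per the submitters' processing notes. The authors kept cells with more than 1000 genes and the genes shared with their other experiments, and named the populations. The deposited matrix holds raw UMI counts, and a deposited cell table gives library and population. Column sums equalled the deposited totals in 7815 of 7815 cells, and 0 columns belonged to other samples. The 2 libraries shared 7 barcodes, which were kept. No doublet step is stated and none was added; leaving out the 5% of cells with the most UMIs was an alternative.

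UMIs were summed per gene, population and library and scaled to CPM (Python 3.11.15, numpy 2.4.6, pandas 2.3.3, scipy 1.17.1, matplotlib 3.10.9). Intervals are exact Poisson for CPM, exact binomial for ratios and Clopper-Pearson for shares. A count of 0 was read against 3 UMIs. With 1 library per group no test was run, and a gene is called lower or higher at 2-fold with at least 100 UMIs over both libraries in the cells compared. Shares of cells were taken after thinning each cell to 2000 UMIs, which left out shallower cells (107 NTT and 63 RTT). Classes were monocytes (names with Mono), macrophages (TAM or Macro) and dendritic cells. The ratio and its interval were tested on simulated counts with known changes. TMM factors came from edgeR 4.0.16 in R 4.3.3. Named genes were the 9 members, the 3 genes most like each by Pearson's r, and, per role of the pathway list, up to 3 with the largest ratios; targets named in monocytes beyond these were chosen after their values were seen. The members and lists were chosen with earlier results of these data known. Position data are from GENCODE M21 (GRCm38). Some items are not reported here.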

Additional observations from a re-analysis of the deposited data

Results flagged for a closer look

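In 3 members the counting intervals of the log2 ratio lay above 0 in one population and below 0 in another, a difference in direction that was not tested, since each group is 1 library. Irf5 was at 1.15 in DC3 and -0.33 in Infl_Mono, the latter 0.06 (-0.42 to 0.50) without cells that carry C1qa. Irf8 was at 0.25 in DC3 and -1.45 in cDC2. Irf4 was at 1.55 in NK_cells and -2.85 in TAM_cycling, the latter from 1 cell with plasma cell genes.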

How the results depend on the processing

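The count of members at least 2-fold lower in RTT ranged from 4 to 7 of 9 over all cells, from 2 to 5 in monocytes, from 3 to 5 in macrophages and from 3 to 5 in dendritic cells over the alternatives, and the count of members at least 2-fold higher was 0 in each. The alternatives were 2 other scalings, a mean over cells, a minimum of 1500 genes per cell, thinning, leaving out the deepest cells or the top cell of each gene, no minimum of UMIs, a 1.5-fold threshold, and leaving out monocytes with C1qa. Only the 1.5-fold threshold moved a count by more than 1.5 times, to 5 in monocytes and 5 in dendritic cells, which follows from its construction. Of 36 ratios of a member over all cells or in a class, 33 kept their sign in every alternative that gave a value and 3 did not: Irf3 in monocytes (0.37, with -0.02 as a mean over cells, -0.19 after thinning and -0.03 without C1qa-carrying cells), Irf4 in monocytes (0.44, with -0.24 without those cells) and Irf4 in dendritic cells (-0.17, with 0.64 after thinning). The cause was not tested. TMM and the median of ratios moved all log2 ratios by at most 0.06 over all cells and in the 3 classes, and TMM by -0.12 in Infl_Mono and -0.14 in DC3. Irf8 in dendritic cells (-0.97) crossed 2-fold with TMM (-1.03) and with the median of ratios (-1.005). Leaving out cDC2 with Siglech or Ccr9, chosen after the marker levels were seen, gave 4 members lower in dendritic cells against 3. No paired analysis was possible because each group has 1 library. Depth limits Irf4 most, whose 319 UMIs leave intervals wider than 2-fold in most populations.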

Other observations

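Some populations held a larger share of the members' UMIs than of all UMIs. In NTT, Infl_Mono held 16.0% of all UMIs but 36.9% of Stat2 UMIs and 34.3% of Irf7 UMIs. In RTT, Infl_Mono held 1.32% of all UMIs but 11.7% of Irf7 UMIs and 9.05% of Stat2 UMIs, and TAM_H2Ab1 held 0.806% of all UMIs but 7.76% of Irf7 UMIs. TAM_C1q, with 40.8% of RTT UMIs, held 39.1% of Irf7 and 39.1% of Stat2 UMIs, and TAM_cycling, with 27.3%, held 14.9% and 19.9%. For Irf8 the same kind of excess lay in cDC1, which held 0.924% of RTT UMIs and 10.4% of its Irf8 UMIs.

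Cells also differed in how many members they showed. After thinning to 2000 UMIs, 43.6% of NTT and 18.5% of RTT Infl_Mono cells held UMIs of at least 4 of the 9 members, and 61.5% of RTT Ctsk_Macro cells held none of them. Among Infl_Mono cells with at least 1000 CPM of C1qa, Irf7 stood at 2199 CPM in 145 NTT cells and 749 CPM in 45 RTT cells, and in the other cells at 1347 and 587 CPM. No test was possible on these values.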
